A study of Mus musculus with 12 samples.

Results

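The interleukin-1 family holds secreted and nuclear cytokines, their receptors and their natural inhibitors, and the inflammasome is the protein complex that matures some of these cytokines. The 10 genes described here were chosen by name, with earlier results of these data known. They are the agonists Il1a and Il1b, the receptor antagonist Il1rn, the signalling receptor Il1r1, the decoy receptor Il1r2 and the shared co-receptor Il1rap. The others are the related cytokines Il18 and Il33, the inflammasome sensor Nlrp3 and the protease Casp1. The deposited transcripts were matched to 35944 genes, and all 10 were among the 15485 genes that passed the filter on low counts.

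Polyadenylated RNA was measured in subcutaneous tumours of the 4T1 line, a mouse mammary carcinoma of BALB/c origin. In every group, 100000 cells of this line were placed under the skin of the right flank, and the mice were BALB/c females aged 6 to 8 weeks, so the hosts were immunocompetent and of the strain of the line. From day 5, 3 µg of extracellular vesicles (EVs) was injected beside the tumour every 2 days, and the tumours were taken on day 21. The EVs came from MS-1, a mouse endothelial line, and were loaded by electroporation with a double-stranded mimic of miR-222-3p, of miR-183-5p, of miR-142-5p or, as the control, of the nematode cel-miR-67 (ctrl-EVs), with 3 tumours in each of the 4 groups. The controls therefore also received MS-1 EVs and a miRNA mimic, and no tumour without EVs was analysed here. Which cells of the tumour took up a mimic was not measured in these libraries.

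Interleukin-1 alpha and beta bind Il1r1, which then recruits Il1rap and signals through Myd88 to NF-kB. Il1rn occupies the receptor without signalling, and Il1r2 binds the cytokine without passing a signal on. Interleukin-1 beta and interleukin-18 are made as precursors that caspase-1 cleaves after a sensor such as Nlrp3 has assembled, a step that RNA levels do not show. In tumours these cytokines are known as products of myeloid cells, above all neutrophils, monocytes and macrophages, and as inducers of chemokines, colony-stimulating factors and matrix proteases.

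To see whether the injected miRNAs could pair with these transcripts, their sequences were set beside the 3′ untranslated regions of the 10 genes. The mature mouse miRNAs are shown because their seed, bases 2 to 8 in capitals, defines the sites that were searched (RefSeq, GRCm38.p6; chr11:87756867-87756887 on the plus strand, chr6:30169711-30169732 on the minus strand and chrX:19146901-19146923 on the minus strand, in this order).
miR-142-5p: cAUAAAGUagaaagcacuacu
miR-183-5p: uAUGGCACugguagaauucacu
miR-222-3p: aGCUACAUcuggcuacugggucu
The 3 seeds differ from each other. In each pair of words below, the first matches the whole seed. The second matches the seed without base 8, followed by an A. A site was the letters ACTTTAT or CTTTATA for miR-142-5p, GTGCCAT or TGCCATA for miR-183-5p and ATGTAGC or TGTAGCA for miR-222-3p, read on the transcript strand of the most abundant coding transcript of each gene.

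Of the 30 combinations of gene and miRNA, 3 held a site, and each of them held 1. Il1rap carried a miR-142-5p site, Il1r1 a miR-183-5p site and Il1rn a miR-222-3p site. The Il1rap and Il1r1 sites match the whole seed, and the Il1rn site matches it without base 8, followed by an A. They are shown within 30 bases of the 3′ untranslated region, with the matched letters in capitals (GRCm38, plus strand; chr16:26716715-26716744, chr1:40314027-40314056 and chr2:24350407-24350436, in this order).
Il1rap, miR-142-5p site: cttgagtttctACTTTATtccctgaggtca
Il1r1, miR-183-5p site: caatggctgtcGTGCCATcttccttctgtg
Il1rn, miR-222-3p site: aattgatggatTGTAGCAttcccataatct
Over the 14356 genes searched in the same way, 16.0% held a site for miR-222-3p, 14.8% held one for miR-183-5p and 21.3% held one for miR-142-5p, so 1 gene of 10 for each miRNA was no more than the share over all genes. A match of letters is not evidence of binding. The annotated 3′ untranslated region of the main Il1r2 transcript is 24 bases long and that of Casp1 88 bases, which leaves little sequence to search, whereas that of Il1r1 has 2808 bases and that of Il1rap 2676.

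The libraries held between 20285968 and 27021401 estimated reads. At this depth the scarcest of the 10 genes, Il33, had between 68 and 308 reads per tumour. A pair of tumours stood apart in markers of other cell types. Tumour 3 of miR-142-5p-EVs had 275 TPM (a level per unit of transcript length, scaled to the same total in every library) summed over 3 B cell markers, whereas the other 11 tumours had between 0.404 and 1.91. Tumour 3 of miR-183-5p-EVs had 274 TPM over 4 skeletal muscle markers, and the other 11 had between 7.50 and 14.4. This tumour and the 3 tumours of miR-222-3p-EVs also shared a low share of Gm28661 in the reads of the near-identical pair Gm28661 and mt-Co2 (at most 0.324%, against at least 7.13% in the other 8 libraries), so for miR-222-3p-EVs this feature of the libraries and the miRNA cannot be told apart. Carcinoma markers were high in every tumour (Krt8 between 481 and 732 TPM). Of 6 markers of skin keratinocytes, Krt1 was at 0 in all 12 tumours, and the 6 together summed to between 12.0 and 41.0 TPM.

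Il1b was the most abundant of the 10 genes by a wide margin. Its level was 228 TPM ± 65.7 (SD, n = 12), it lay above the next gene in all 12 tumours, and the ranges did not overlap. Casp1 followed with 73.4 TPM ± 12.0 (SD, n = 12) and again exceeded the next gene, Il18, in all 12 tumours. Il18, at 48.9 TPM ± 6.92 (SD, n = 12), overlapped in range with the receptor genes below it. Il1r1 (37.9 TPM), Il1rn (37.4 TPM) and Il1r2 (37.1 TPM) could not be put in an order, because Il1r1 exceeded Il1rn in 4 of 12 tumours and Il1rn exceeded Il1r2 in 5. Il1a, with 13.6 TPM, lay below Il1r2 in all 12 tumours. It was followed by Il1rap with 10.7 TPM, Nlrp3 with 6.36 TPM and Il33 with 4.03 TPM, and each of these overlapped in range with the gene before it. The co-receptor was thus less abundant per length than Il1r1, and the sensor Nlrp3 less abundant than the protease Casp1.

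**Figure D1:**
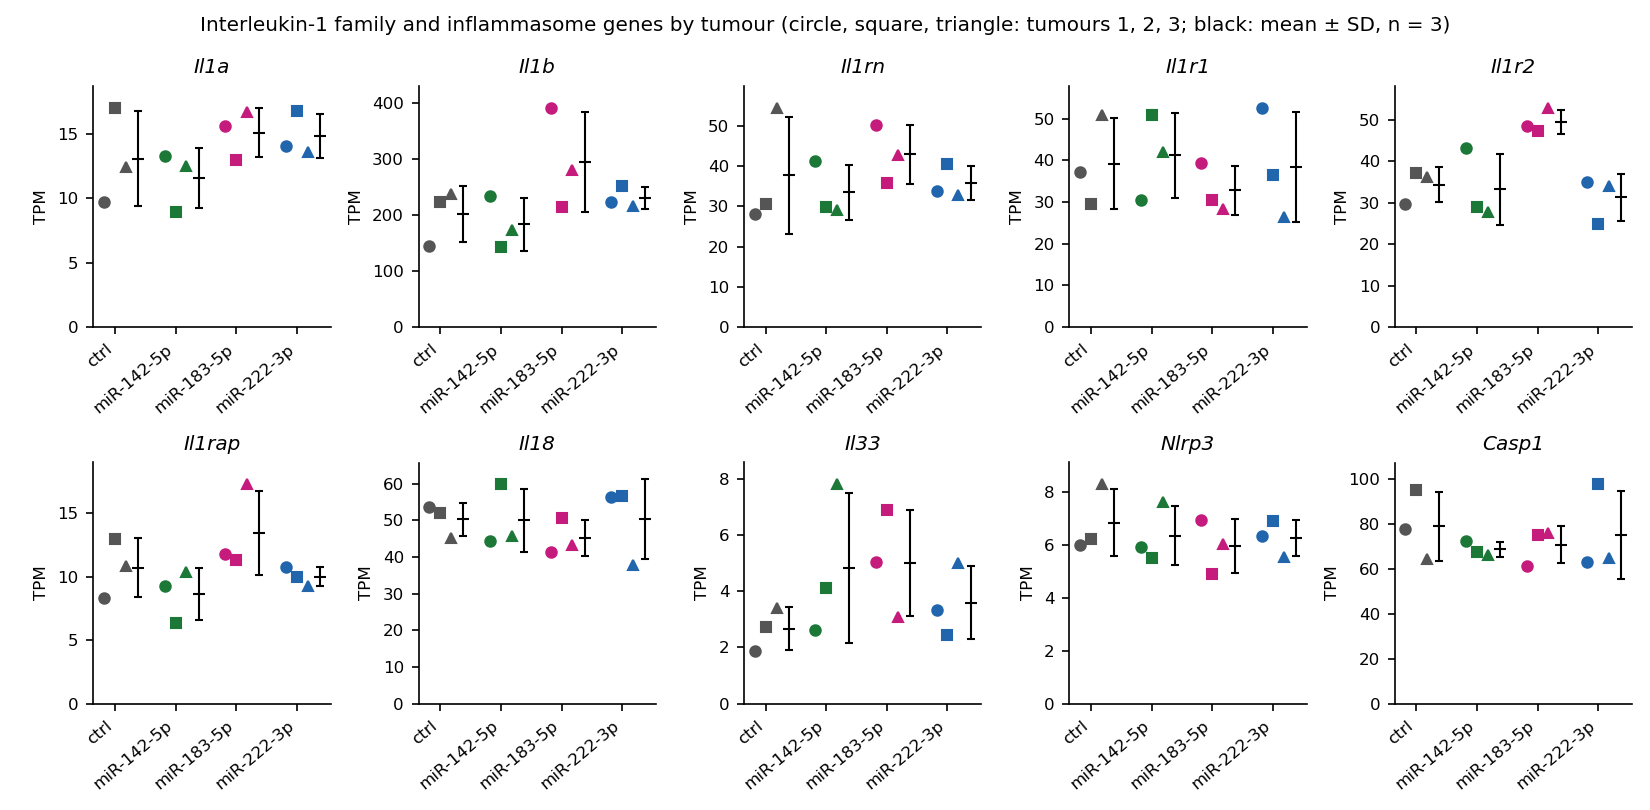
Level of each of the 10 genes in TPM (vertical axes, each starting at 0) in the 12 tumours, by EV group; symbols mark tumours 1 to 3 and black bars the mean ± SD of 3 tumours. For Il1r2 the 3 tumours of miR-183-5p-EVs lie between 47.2 and 52.8 TPM, above all other tumours, while the groups of most other genes overlap.

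The first question was whether any of the miRNAs changed the 10 genes against ctrl-EVs. None of the 10 had an adjusted p below 0.05 for any of the 3 miRNAs (DESeq2, Wald test, adjusted over 15438 genes). Over all genes the same test called 0.00648% for miR-142-5p-EVs, 0% for miR-183-5p-EVs and 0.0259% for miR-222-3p-EVs, so calls were rare in general. At an unadjusted p under 0.05 there were, in this order, 1, 3 and 0 of the 10 genes, beside 553, 495 and 357 of all genes tested. edgeR's quasi-likelihood test also called 0 of the 10 in each of these comparisons.

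Among the agonists, Il1b was 145, 223 and 237 TPM in the 3 tumours with ctrl-EVs and 391, 214 and 279 TPM in those with miR-183-5p-EVs. Tumour 1 of miR-183-5p-EVs was the highest of all 12, and the groups overlapped. The log2 fold change was 0.58 (SE 0.24, unadjusted p = 0.0162, adjusted p = 1.0), and it was 0.34 without that tumour. With miR-142-5p-EVs Il1b measured 234, 143 and 172 TPM, and with miR-222-3p-EVs 223, 252 and 216 TPM, both within or close to the range of the controls. Il1a, whose product is active without cleavage, spanned only 8.91 to 17.0 TPM over the 12 tumours, and its log2 fold changes against ctrl-EVs lay between -0.15 and 0.24.

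Of the inhibitors, the decoy receptor was higher in the miR-183-5p tumours than in the other 9, and the antagonist overlapped in every comparison. Il1r2 was 29.6, 37.2 and 36.2 TPM with ctrl-EVs and 48.4, 47.2 and 52.8 TPM with miR-183-5p-EVs. With miR-142-5p-EVs it was 43.1, 28.8 and 27.6 TPM, and with miR-222-3p-EVs 35.0, 24.8 and 34.1 TPM. All 3 tumours of miR-183-5p-EVs were thus above each of the other 9. How many of all genes separate these 3 tumours from the other 9 was not counted. Against ctrl-EVs the log2 fold change was 0.55 (SE 0.21, unadjusted p = 0.00907, adjusted p = 1.0), which did not pass the test across all genes. When the fit held only these 2 groups, Il1r2 did pass (log2 fold change 0.56, adjusted p = 0.0486, DESeq2). That fit called 36 of 15472 genes, where the fit of all 12 libraries called 0 of 15438. Il1r2 was the only one of the 10 genes whose normalised counts did not overlap between miR-183-5p-EVs and ctrl-EVs. That is close to the share over all genes, of which 9.2% did not overlap in this comparison. For the other comparisons with ctrl-EVs no member was free of overlap, beside 6.08% of all genes for miR-142-5p-EVs and 5.52% for miR-222-3p-EVs.

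Il1rn, which encodes the receptor antagonist, was 28.0, 30.5 and 54.4 TPM with ctrl-EVs and 50.2, 35.7 and 42.7 TPM with miR-183-5p-EVs. Control tumour 3 was the highest of all 12, so the controls alone covered the range of the treated tumours. For miR-222-3p, which has a site in this gene, the tumours measured 33.7, 40.5 and 32.9 TPM. The log2 fold change was -0.06 (SE 0.24), with a 95% interval from -0.54 to 0.41. This estimate changed sign without the transcript length offset (0.09).

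The balance of antagonist to agonist was taken as the log2 ratio of Il1rn to Il1b in TPM. The ratio itself was 0.193, 0.137 and 0.230 in the controls, 0.176, 0.210 and 0.169 with miR-142-5p-EVs, 0.128, 0.166 and 0.153 with miR-183-5p-EVs, and 0.151, 0.161 and 0.152 with miR-222-3p-EVs. Il1b transcripts therefore outnumbered Il1rn transcripts in all 12 tumours. The mean log2 ratio differed from ctrl-EVs by 0.01 for miR-142-5p-EVs, by -0.29 for miR-183-5p-EVs and by -0.24 for miR-222-3p-EVs. With 3 tumours against 3 the two-sided exact permutation test cannot go below p = 0.1, and it gave p = 1.0, 0.3 and 0.4, or 1.0, 0.6 and 0.6 after adjustment over the 3 comparisons. Leaving out control tumour 3 brought the difference to -0.13 for miR-183-5p-EVs and -0.07 for miR-222-3p-EVs, and leaving out control tumour 2 brought it to -0.50 and -0.44.

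The receptor chain that signals and its co-receptor were measured next. Il1r1 was 37.3, 29.5 and 50.97 TPM with ctrl-EVs and 39.5, 30.5 and 28.4 TPM with miR-183-5p-EVs, whose seed matches its 3′ untranslated region. The groups overlapped, with a log2 fold change of -0.23 (SE 0.25) and a 95% interval from -0.72 to 0.25. It was -0.06 without control tumour 3 and -0.41 without control tumour 2. Il1rap was 8.35, 13.0 and 10.9 TPM with ctrl-EVs and 9.25, 6.32 and 10.4 TPM with miR-142-5p-EVs, the miRNA that matches it. These groups overlapped too, with a log2 fold change of -0.29 (SE 0.22) and a 95% interval from -0.72 to 0.13, and the estimate was -0.12 without tumour 2 of miR-142-5p-EVs and -0.15 without control tumour 2. For none of the 3 genes with a site was a difference from ctrl-EVs detectable, and the intervals still allow a decrease in each.

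Il33, an alarmin held in the nucleus of stromal and epithelial cells, had the largest estimates and the largest errors. It was 1.87, 2.72 and 3.40 TPM with ctrl-EVs, 2.61, 4.12 and 7.81 TPM with miR-142-5p-EVs, 5.04, 6.89 and 3.10 TPM with miR-183-5p-EVs, and 3.34, 2.43 and 5.00 TPM with miR-222-3p-EVs. Each treated group overlapped the controls. The log2 fold change was 0.86 (SE 0.41, unadjusted p = 0.0338, adjusted p = 1.0) with miR-142-5p-EVs and, with miR-183-5p-EVs, 0.96 (SE 0.40, unadjusted p = 0.0182, adjusted p = 1.0). The highest value came from the miR-142-5p tumour with the B cell markers, and without the 2 tumours that stood apart the estimates were 0.41 and 1.21. Without tumour 2 of miR-183-5p-EVs, the highest of its group, the second estimate was 0.64.

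The inflammasome genes varied least. Nlrp3 lay between 4.92 and 8.29 TPM over the 12 tumours, Casp1 between 61.3 and 97.6 TPM and Il18 between 37.8 and 59.8 TPM. Against ctrl-EVs the log2 fold changes of Nlrp3 were -0.13 for miR-222-3p-EVs, -0.17 for miR-183-5p-EVs and -0.09 for miR-142-5p-EVs, each with an SE of 0.17. In the same order, those of Casp1 were -0.08, -0.14 and -0.19, each with an SE of 0.21. For Il18 they were -0.02, -0.14 and -0.003, each with an SE of 0.20. The 95% intervals of these 9 estimates lay between -0.61 and 0.39.

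**Figure D2:**
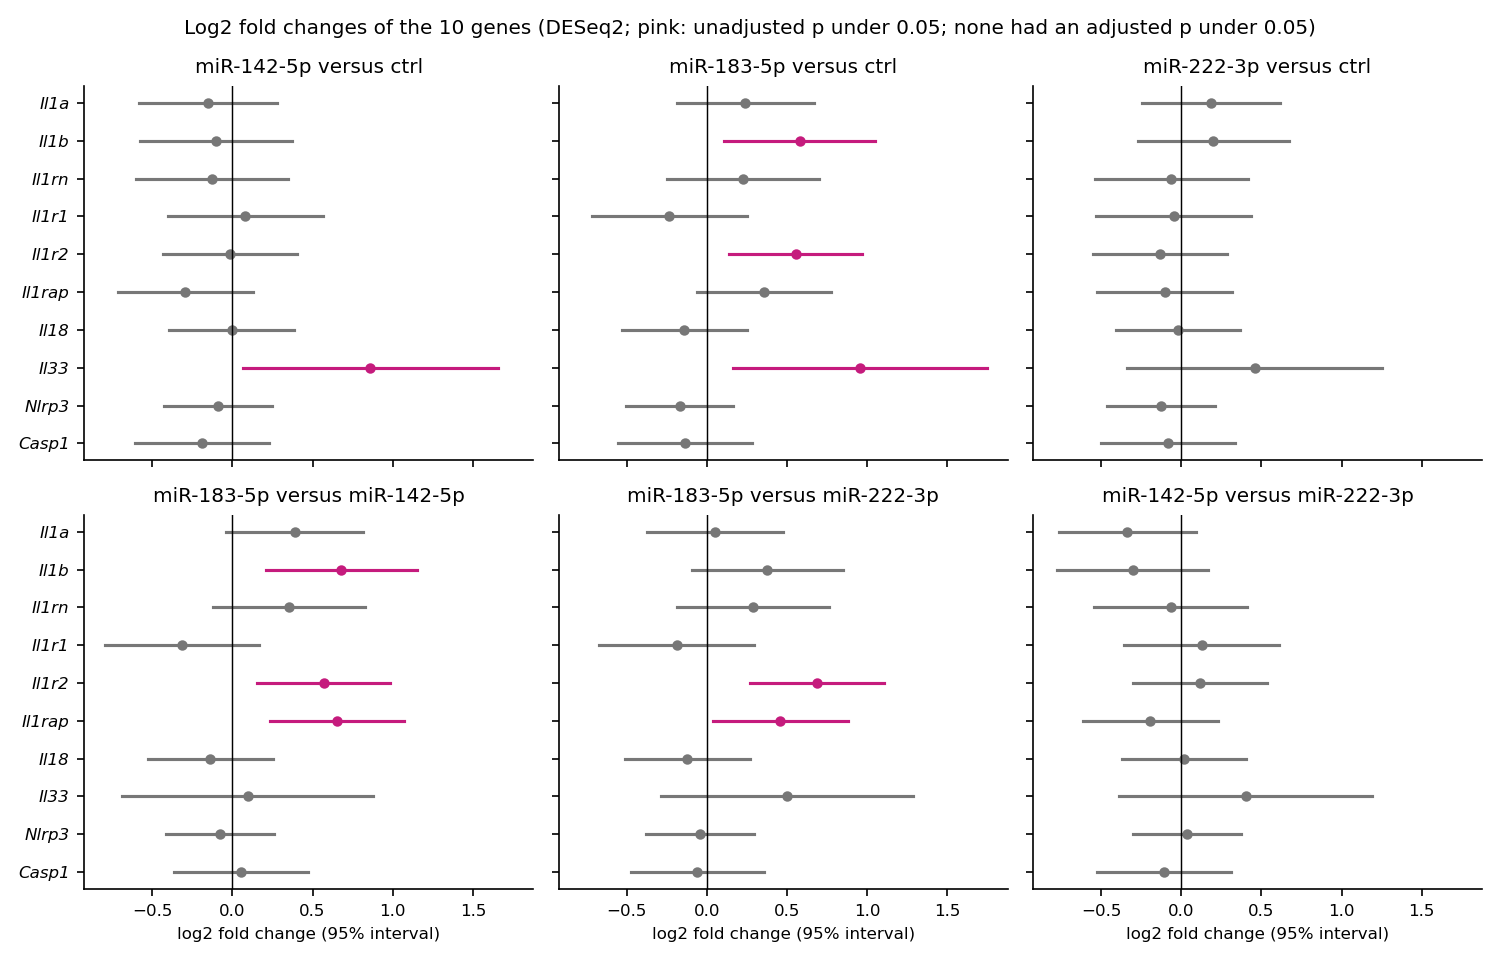
Log2 fold change of each gene (points) with its 95% interval (lines) in the 6 comparisons, from 1 DESeq2 fit of 12 libraries; pink marks an unadjusted p under 0.05. In the 3 panels that set miR-183-5p-EVs against another group, Il1a, Il1b, Il1rn, Il1r2, Il1rap and Il33 lie to the right of 0. Il1r1, Il18 and Nlrp3 lie to the left there. Many of these intervals include 0, and no estimate passed the adjusted threshold.

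The miRNA groups were then compared with each other. No member was called in these comparisons either, beside 0.0518% of all genes for miR-183-5p-EVs against miR-142-5p-EVs, 0.0324% for miR-183-5p-EVs against miR-222-3p-EVs and 0.0389% for miR-142-5p-EVs against miR-222-3p-EVs. At an unadjusted p under 0.05 there were 3, 2 and 0 of the 10 genes, beside 1226, 501 and 559 of all genes. edgeR's quasi-likelihood test called 0 members here as well.

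Against miR-142-5p-EVs, Il1rap was higher with miR-183-5p-EVs by a log2 fold change of 0.65 (SE 0.21, unadjusted p = 0.00236, adjusted p = 0.207). The miR-183-5p tumours measured 11.8, 11.3 and 17.3 TPM and did not overlap the miR-142-5p tumours, and without the highest of them, the tumour with the muscle markers, the estimate was 0.43. Il1b differed by 0.68 (SE 0.24, adjusted p = 0.281) and Il1r2 by 0.57 (SE 0.21, adjusted p = 0.342). When tumour 1 of miR-142-5p-EVs, the highest of its group for both genes, was left out, Il1b (log2 fold change 0.96, adjusted p = 0.00332) and Il1r2 (0.86, adjusted p = 0.000315) passed. In this omission 416 of 14573 genes tested passed, against 8 of 15438 with all 12 tumours in the fit. In no other single omission did a member pass. Without the 2 tumours that stood apart, the estimate for Il1r2 was 0.36. Without tumour 1 of miR-183-5p-EVs that for Il1b was 0.44. In this comparison 2 of the 10 genes, Il1r2 and Il1rap, did not overlap, where 12.4% of all genes did not.

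Against miR-222-3p-EVs, the same pair did not overlap, where 9.07% of all genes did not. Il1r2 was higher with miR-183-5p-EVs by 0.69 on the log2 scale (SE 0.21, unadjusted p = 0.00117, adjusted p = 0.566), and Il1rap by 0.46 (SE 0.21, unadjusted p = 0.0316, adjusted p = 1.0), or by 0.24 without the tumour with the muscle markers. Between the groups with miR-222-3p-EVs and with miR-142-5p-EVs all 10 genes overlapped, beside 6.23% of all genes that did not. These comparisons share their miR-183-5p tumours, so their values are not independent of each other.

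Markers of myeloid cells were summed per tumour beside these values. The summed level of 7 neutrophil markers was between 1884 and 3048 TPM with miR-183-5p-EVs, 1053 and 2017 with ctrl-EVs, 1022 and 1663 with miR-142-5p-EVs, and 884 and 2014 with miR-222-3p-EVs. All 7 had a positive log2 fold change of miR-183-5p-EVs against ctrl-EVs, with a median of 0.37, and 0 of 7 were called, while the sums of these 2 groups overlapped. Against miR-142-5p-EVs all 7 were positive too, with a median of 0.93 and 0 called. In that comparison 5 of 7 did not overlap, beside 12.4% of all genes. The 4 monocyte markers summed to between 180 and 248 TPM with miR-183-5p-EVs and between 140 and 272 TPM with ctrl-EVs, and 2 of 4 had a positive estimate, with a median of 0.11 and 0 called. The summed level of 7 macrophage markers was between 903 and 1342 TPM with miR-183-5p-EVs and between 1365 and 1706 with ctrl-EVs, 1465 and 2132 with miR-142-5p-EVs, and 1189 and 1812 with miR-222-3p-EVs. Against ctrl-EVs all 7 had a negative estimate, with a median of -0.44 and 0 of 7 called. The sums with miR-183-5p-EVs and with ctrl-EVs did not overlap, and 3 of the 7 markers did not, beside 9.2% of all genes. Against miR-142-5p-EVs all 7 were negative too, with a median of -0.57 and 0 called, and 4 of 7 did not overlap. None of these markers was at 0 in all tumours. In whole tumours, fewer cells of a type and less RNA per cell cannot be told apart. The part of these cells in the values of Il1b and Il1r2 was not tested.

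**Figure D3:**
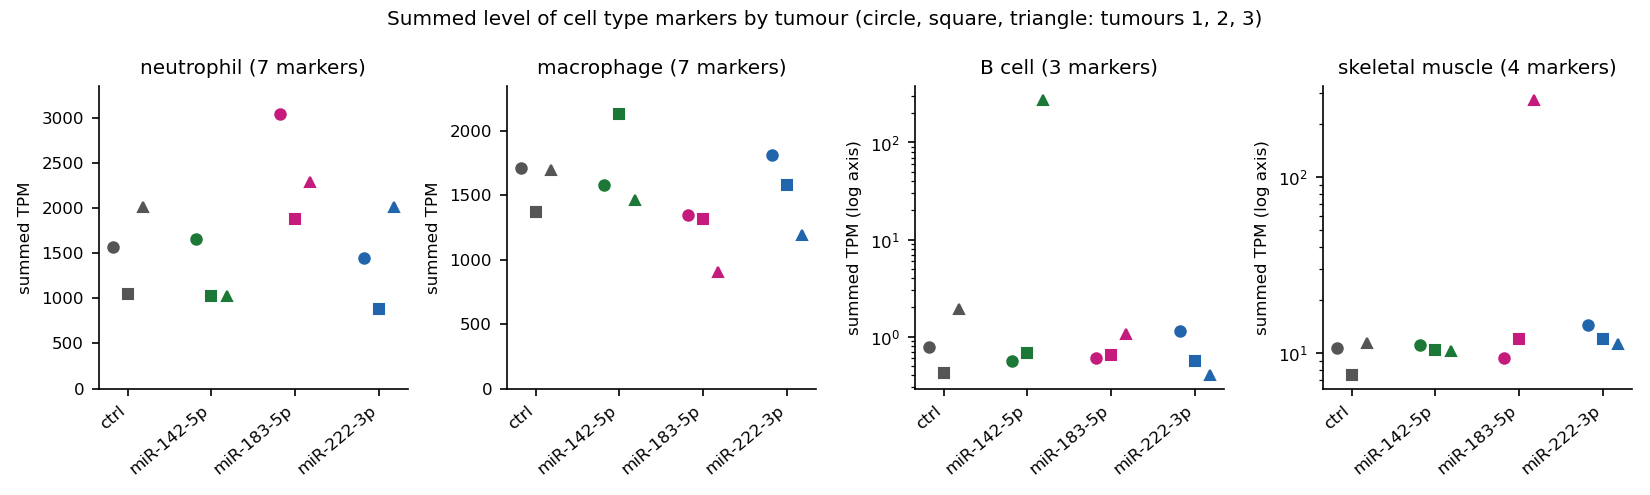
Summed TPM of cell type markers by tumour and EV group, on linear axes from 0 for neutrophils and macrophages and on log axes for B cells and skeletal muscle. The neutrophil sum is highest in a miR-183-5p tumour at 3048 TPM, and 1 miR-142-5p tumour stands apart in B cell markers and 1 miR-183-5p tumour in muscle markers.

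Genes outside the 10 were followed in lists by role. Of 13 further ligands and receptors of the family, 7 passed the filter and 0 were called in any comparison. The keratinocyte-type ligands Il1f5, Il1f6 and Il1f8 were at or near 0 TPM in all tumours. Il1f9, an interleukin-36 agonist, was 7.11, 5.52 and 10.7 TPM with ctrl-EVs and 6.01, 3.27 and 3.40 TPM with miR-142-5p-EVs, a log2 fold change of -0.84 (SE 0.32, unadjusted p = 0.00894, adjusted p = 1.0) in groups that overlapped. It passed without tumour 1 of miR-142-5p-EVs (-1.25, adjusted p = 0.0216, DESeq2), where 76 of 15473 genes passed. Il1rl1, the receptor for interleukin-33, was estimated higher by 0.99 (SE 0.46, unadjusted p = 0.0308) with miR-183-5p-EVs against ctrl-EVs, and by 0.37 without the 2 tumours that stood apart. For Sigirr, an inhibitory receptor of the family, the estimate with miR-142-5p-EVs was -0.23 (SE 0.12, unadjusted p = 0.0587).

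Of 20 inflammasome partners, 19 were tested and 0 were called in the 6 comparisons. P2rx7, the ATP-gated channel known to trigger Nlrp3, was 39.3, 26.3 and 44.2 TPM with ctrl-EVs and 21.8, 20.8 and 17.9 TPM with miR-183-5p-EVs. The groups did not overlap, beside 9.2% of all genes that did not. The log2 fold change was -0.84 (SE 0.26, unadjusted p = 0.0011, adjusted p = 0.980). It passed when the fit held only these 2 groups (adjusted p = 0.0348, DESeq2), where 36 of 15472 genes passed. Pycard, the adaptor that joins Nlrp3 to caspase-1, was estimated at -0.41 (SE 0.19, unadjusted p = 0.0280), or at -0.24 without control tumour 1, and Nlrp6, a sensor near the limit of detection here, at -1.96 (SE 1.07, unadjusted p = 0.0676). With miR-183-5p-EVs against ctrl-EVs 3 of the 19 partners had a positive estimate, the median was -0.09, and over all genes the median was -0.01.

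Of 25 genes of interleukin-1 receptor signalling, all were tested and 0 were called. Their median log2 fold changes against ctrl-EVs were -0.05 for miR-142-5p-EVs, -0.03 for miR-183-5p-EVs and -0.03 for miR-222-3p-EVs. In the comparisons with ctrl-EVs the lowest values of p belonged to Nfkb2, an NF-kB subunit, with miR-222-3p-EVs (log2 fold change -0.30, SE 0.13, unadjusted p = 0.0179), to Zc3h12a, an RNase that degrades cytokine mRNAs (0.39, SE 0.19, unadjusted p = 0.0429), and to Peli2, a ubiquitin ligase of the pathway (-0.45, SE 0.23, unadjusted p = 0.0461), the last 2 with miR-183-5p-EVs.

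Genes known to respond to interleukin-1 had the largest median estimate of the 4 lists where miR-183-5p-EVs were compared with ctrl-EVs. Of 20, 19 were tested. With miR-183-5p-EVs against ctrl-EVs 15 of 19 had a positive estimate, with a median of 0.47, and 0 were called. Against miR-142-5p-EVs 18 of 19 were positive, with a median of 0.85, and 1 was called. That gene was Mmp3, a matrix metalloproteinase known from stromal cells. It was 171, 155 and 271 TPM with miR-183-5p-EVs, 85.2, 58.7 and 82.9 TPM with miR-142-5p-EVs, 104, 108 and 110 TPM with ctrl-EVs, and 89.9, 170.5 and 174 TPM with miR-222-3p-EVs. The miR-183-5p tumours lay above all control and miR-142-5p tumours. Mmp3 rose by a log2 fold change of 1.40 (SE 0.28, adjusted p = 0.00304) against miR-142-5p-EVs, whereas against ctrl-EVs the estimate of 0.91 (SE 0.28, adjusted p = 0.980) did not pass. With only miR-183-5p-EVs and ctrl-EVs in the fit it did (0.91, adjusted p = 0.00744, DESeq2), where 36 of 15472 genes passed. The call against miR-142-5p-EVs was lost without the miR-183-5p tumour with the muscle markers (log2 fold change 1.116, adjusted p = 0.166), and under edgeR's quasi-likelihood test (1.41, adjusted p = 0.545) and limma on log2(TPM + 0.1) (1.37, adjusted p = 0.836). The number of responders called against miR-142-5p-EVs was then 0. It was 3 with only the 2 groups in the fit (Mmp3, Lcn2 and Saa3), 2 with the replicate number as a block (Mmp3 and Ptgs2) and 4 without tumour 1 of miR-142-5p-EVs (Mmp3, Ptgs2, Cxcl2 and Cxcl3). Over all genes these settings called 68, 6 and 416, in this order. The 5 fibroblast markers summed to between 575 and 757 TPM with miR-183-5p-EVs, 268 and 571 with ctrl-EVs, 180 and 534 with miR-142-5p-EVs, and 248 and 914 with miR-222-3p-EVs. Of miR-183-5p-EVs against ctrl-EVs 4 of 5 had a positive estimate, with a median of 0.50, and against miR-142-5p-EVs 4 of 5, with a median of 0.22, and 0 were called in either. The part of fibroblasts in the values of Mmp3 was not tested.

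Csf3 and Cxcl2 were picked from the 19 responders tested after their values were seen, so they add no evidence to the counts above. They do not stand for the list, in which 15 of 19 were positive against ctrl-EVs, with a median of 0.47. Csf3, the growth factor of neutrophils, was 156, 145 and 137 TPM with ctrl-EVs and 434, 224 and 306 TPM with miR-183-5p-EVs, with a log2 fold change of 1.15 (SE 0.59, adjusted p = 1.0). With only these 2 groups in the fit it passed (1.15, SE 0.21, adjusted p = 0.000274, DESeq2), where 36 of 15472 genes passed. Cxcl2, a neutrophil chemokine, was 10.5, 12.7 and 20.8 TPM with ctrl-EVs and 43.8, 15.9 and 34.1 TPM with miR-183-5p-EVs, with a log2 fold change of 1.13 (SE 0.44, adjusted p = 1.0). The Cxcl2 groups overlapped and those of Csf3 did not, beside 9.2% of all genes that did not in this comparison.

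**Figure D4:**
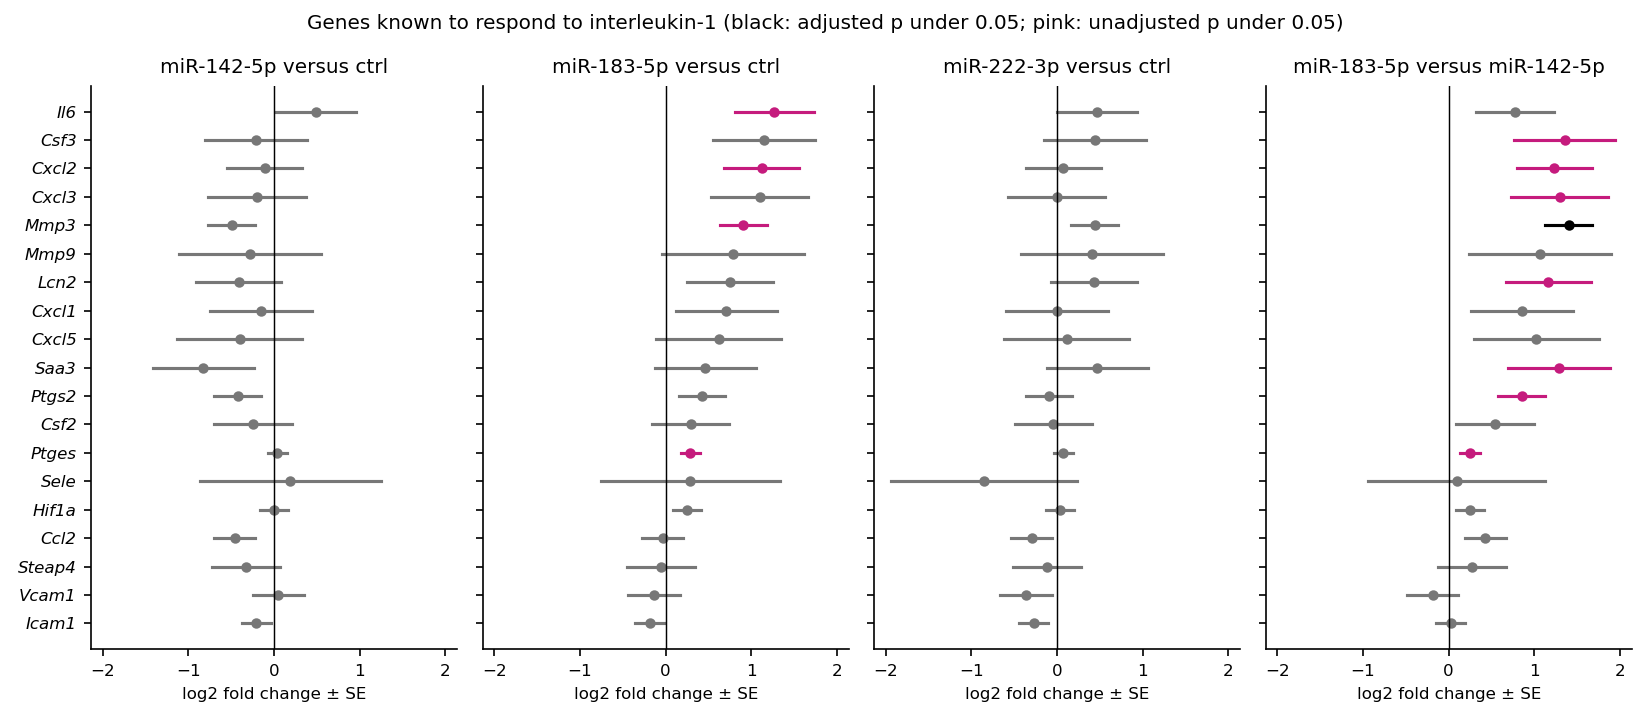
Log2 fold change ± SE of 19 genes known to respond to interleukin-1 in 4 comparisons, ordered by their estimate for miR-183-5p-EVs against ctrl-EVs; pink marks an unadjusted and black an adjusted p under 0.05. Most estimates lie to the right of 0 where miR-183-5p-EVs come first, and Mmp3 against miR-142-5p-EVs is the only black point.

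To ask which of the 10 genes varied together from tumour to tumour, all 45 pairs were correlated over the 12 tumours on log2 normalised counts. After adjustment over the 45 pairs, 3 passed by Pearson's r and 0 by Spearman's rho (permutation tests with 100000 resamples). Il1a and Il1b had r = 0.79 (permutation p = 0.00191, adjusted p = 0.0286) and rho = 0.80 (permutation p = 0.00277, adjusted p = 0.0913). For Il1b and Il1rn, r was 0.78 (permutation p = 0.00176, adjusted p = 0.0286) and rho 0.78 (permutation p = 0.00406, adjusted p = 0.0913). Agonist and antagonist thus varied together over the tumours by Pearson's r, while the pair did not pass by Spearman's rho. For Il1a and Il1rap, r was 0.78 (permutation p = 0.00142, adjusted p = 0.0286) and rho 0.70 (permutation p = 0.0139, adjusted p = 0.125).

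Without the 2 tumours farthest from the median of the first gene, r was 0.61, 0.72 and 0.57 for these 3 pairs, and with the group means removed 0.71, 0.75 and 0.80. With the group means removed, however, 0 pairs passed after adjustment, and 0 passed when 1 of 7 tumours was left out (control tumour 1, any miR-142-5p tumour, miR-183-5p tumour 2 or 3, or miR-222-3p tumour 1). Without miR-183-5p tumour 1, 1 pair passed. The signalling receptor ran the other way from the agonist Il1a, with r = -0.70 (permutation p = 0.0115, adjusted p = 0.130) for Il1a and Il1r1, which did not pass.

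**Figure D5:**
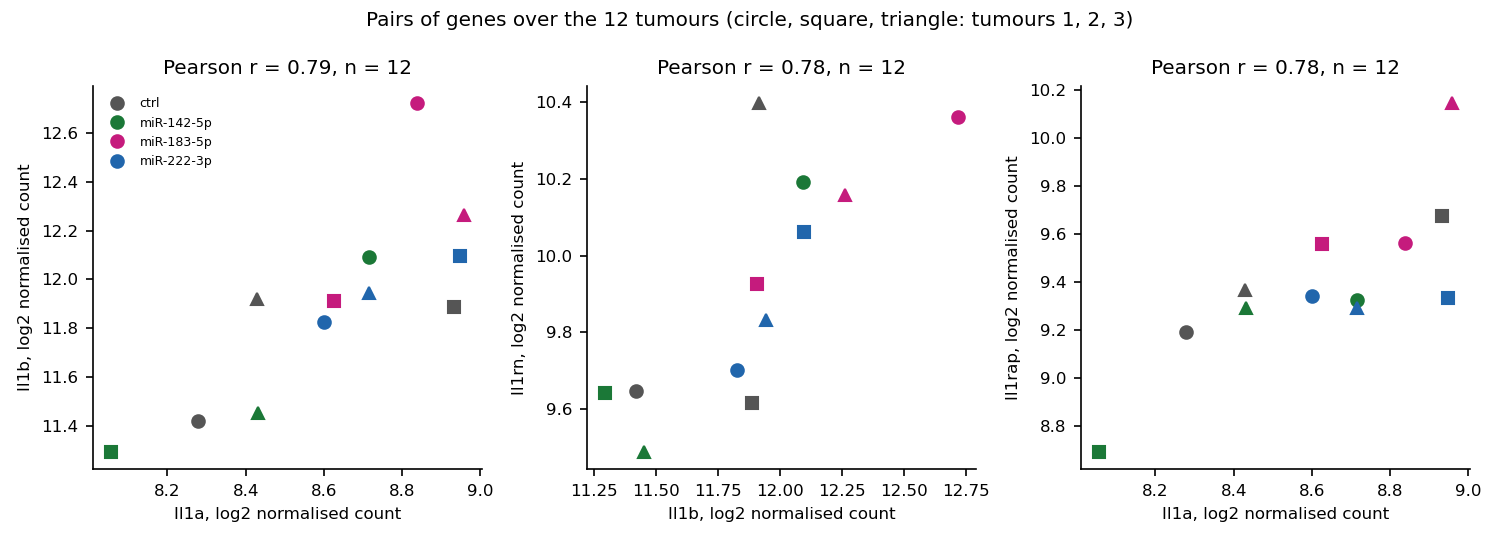
Log2 normalised counts of 3 pairs of genes over the 12 tumours, coloured by EV group, with symbols for tumours 1 to 3. The points rise from lower left to upper right, with Pearson r of 0.79, 0.78 and 0.78. On the Il1rap axis the miR-183-5p tumours lie above all miR-142-5p and miR-222-3p tumours, and the groups otherwise overlap on each axis.

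The genes most like each of the 10 were taken from the 11534 genes with a mean normalised count of at least 100, by Pearson's r over the 12 tumours, as a description without a test. For Il1b they were Dnttip2 (0.92), Rfk (0.89) and Ppp1r3b (0.89), and for Il1a Psmc6 (0.94), Fndc4 (0.91) and Dcbld2 (0.90). For Il1rn they were Hcar2, Eif2a and AI429214 (0.84, 0.84 and 0.82). For Il1r1 they were Nxpe5, Map4k3 and Ctsa (0.97, 0.96 and 0.95), and for Il1r2 Bnip3, Mok and Ifitm6 (0.91, 0.91 and 0.90). Il1rap was nearest to Gm4735, Calu and Rbms2 (0.95, 0.95 and 0.94). Casp1 was nearest to Batf2, Psmc2 and Ifi47 (0.95, 0.94 and 0.93), and Il18 to Gbp8, Zfp207 and Fcgr1 (0.94, 0.91 and 0.89). Nlrp3 was nearest to Arntl, Gk and Akap9 (0.86, 0.83 and 0.79), and Il33 to Slc25a53, Clu and Itih5 (0.91, 0.82 and 0.81). None of the 10 was among the 3 nearest genes of another.

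Several of the 10 genes have transcripts that encode different proteins, and the deposited values split the reads between them. Il1rn is read from an upstream start, known for the intracellular antagonist, and from a downstream start, known for the secreted antagonist. The main transcript from each start is shown by the first 48 coding bases, with the start codon in capitals, because these bases decide whether a signal peptide is made (GRCm38, plus strand; the start codon of Il1rn-201 begins at position 24345453 and that of Il1rn-204 at position 24336983 of chromosome 2).
Il1rn-201: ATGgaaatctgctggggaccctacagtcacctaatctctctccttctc
Il1rn-204: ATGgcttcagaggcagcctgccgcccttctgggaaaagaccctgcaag
Il1rn-201 has 178 codons before its stop and Il1rn-204 has 159. Il1rn-201 took 71.2% of the gene's TPM on average, with a range from 63.1% to 77.7% over the 12 tumours, and Il1rn-204 took 10.3%, with a range from 4.89% to 13.5%. Il1rn-202, which starts close to Il1rn-201 but has another start codon and 162 codons, took 12.6%. Il1rn-201 was thus the main transcript in every tumour.

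Il1rap is read as a membrane-bound co-receptor (Il1rap-201, 570 codons) and as a shorter transcript (Il1rap-206, 360 codons) that ends before the last exons. The long form took 79.8% (range 73.7% to 88.6%) and the short form 17.9% (range 10.4% to 24.1%), and the mean share of the short form was 18.7% with ctrl-EVs, 16.1% with miR-142-5p-EVs, 19.1% with miR-183-5p-EVs and 17.6% with miR-222-3p-EVs. The miR-142-5p site lies in the 3′ untranslated region of the long form. Il1b was mostly Il1b-201 (88.6%), Il1r1 mostly Il1r1-202 (93.9%) and Il1r2 mostly Il1r2-201 (89.98%), and Il1a and Casp1 each had 1 transcript.

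The split was less certain for transcripts that share most of their bases. Nlrp3-201 and Nlrp3-202 both have 1033 codons and differ in their start, and the share of Nlrp3-201 ranged from 51.4% to 100% over the tumours. Il33-202 and Il33-201, both with 266 codons, also differ in their start, and the share of Il33-202 ranged from 41.4% to 100%. Il18 was split among Il18-204 (40.4%), Il18-202 (35.3%) and Il18-203 (21.8%), of which Il18-203 has a shorter coding sequence of 78 codons. These shares are estimates of the authors' program and were not tested between groups.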

How the data were processed

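The labels put the 12 tumours in 4 groups of 3. The authors quantified stranded, paired-end mRNA reads with Salmon. The deposited tables give, per transcript, an expected count (estimated reads), the TPM, and transcript lengths. Of 118783 transcripts, 116710 (98.25%) matched GENCODE M21 on GRCm38 by identifier without version. The methods and the tables name different Ensembl releases.

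Counts and TPM were summed per gene, and the expected counts were rounded. A gene was kept if 3 or more libraries had 10 or more of its reads. DESeq2 1.42.0 (R 4.3.3) was fitted to all 12 libraries, with group as the only factor and transcript length as an offset. Wald p-values were then adjusted (Benjamini-Hochberg, threshold 0.05). Intervals are the estimate ± 1.96 SE. The fit was also run on simulated data with planted changes larger than any estimate of the 10 genes. That run does not show whether smaller changes can be detected. Ratios were compared by exact permutation and pairs by 100000 permutations (scipy). Alternatives were edgeR 4.0.16, limma 3.58.1 on log2(TPM + 0.1) and log2(TPM + 1), other filters and offsets, fits of 2 groups, the replicate number as a block, and omission of each tumour.

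The 10 genes and the lists were chosen with earlier results of these data known. From the other lists, a gene is named where it had an adjusted p under 0.05 or, in a list with none, where it was among the 3 lowest p-values against ctrl-EVs. Csf3 and Cxcl2, picked after their values were seen, lie outside this rule. So do genes named for a very low level or for passing under an alternative. The 3 genes most like each member are named too. Nothing in the labels says whether tumours of a group came from separate experiments, so p-values cover the spread between these tumours. Within groups, no pair of libraries agreed within counting noise (chi-square per gene between 16.1 and 71.4). Intervals do not cover errors of read assignment.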

Additional observations from a re-analysis of the deposited data

Results flagged for a closer look

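Groups of 3 tumours are too small to test for single outlying tumours. A difference between miRNA groups in their departure from ctrl-EVs was looked for instead. Mmp3 differed between miR-183-5p-EVs and miR-142-5p-EVs by a log2 fold change of 1.40 (DESeq2, adjusted p = 0.00304). In normalised counts Il1rap was above the mean of the controls in all 3 tumours with miR-183-5p-EVs and below it in all 3 with miR-142-5p-EVs and all 3 with miR-222-3p-EVs, although in TPM tumour 1 of miR-222-3p-EVs (10.74) lay just above that mean (10.73). The direct differences were 0.65 (adjusted p = 0.207) and 0.46 (adjusted p = 1.0), so neither passed the test. Peli2 showed the opposite order, with direct differences of -0.78 (adjusted p = 0.119) and -0.67 (adjusted p = 0.803), which did not pass either. The first passed without tumour 1 of miR-183-5p-EVs (-1.003, adjusted p = 0.0373), an omission in which 24 of 15445 genes were called. Mmp3, Il1rap and Peli2 were also the genes singled out from many that were looked at, so their directions are not independent evidence.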

How the results depend on the processing

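The count of members called stayed at 0 in 94 of the 96 values under alternatives. It was 1 (Il1r2) for miR-183-5p-EVs against ctrl-EVs with only the 2 groups in the fit, and for miR-183-5p-EVs against miR-142-5p-EVs it ranged from 0 to 2 (Il1b and Il1r2) when single tumours were left out. Over all genes that fit of 2 groups called 36, and the omission that called 2 members called 416. With the replicate number as a block (replicate block), 0 members were called in each of the 6 comparisons. Same-numbered tumours of different groups had residual correlations from -0.44 to 0.22 (mean -0.04), so the numbers were not taken as pairs. For correlated pairs the count of 3 went to 0 with the group means removed and ranged from 0 to 4 when single tumours were left out. The cause was not tested. The difference in the log2 ratio of Il1rn to Il1b between miR-142-5p-EVs and ctrl-EVs ranged from -0.19 to 0.18 when single tumours were left out. The fold change of Il1rn with miR-222-3p-EVs turned from -0.06 to 0.086 without the length offset and ranged from -0.20 to 0.24 when single tumours were left out. Leaving out both tumours with B cell or muscle markers was chosen after the data were seen, and called 0 members. Of the 60 fold changes of the members, 58 kept their direction under every other test, filter, offset, unit, block or choice of groups tried, 32 under each single omission, and 51 without both tumours.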
